A study of Mus musculus with 8 samples.

Results

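The 10 genes described here encode the signalling chains of the T cell receptor and the proteins that work beside them at the T cell membrane: Cd3d, Cd3e, Cd3g, Cd247, Zap70, Lat, Trat1, Cd2, Cd5 and Cd28. They were taken by name, and each was read from the probe set annotated to that gene alone with the highest mean over all arrays. All 10 were measured above the filter on low signal, among 11189 genes tested. RNA of splenocytes from male C57/BL6 mice was hybridised to 8 Affymetrix Mouse 430 2.0 arrays. The mice either carried the HMGA1a transgene (TG) or were wild type (WT), described as control littermates, and were 2 or 12 months old. The design text places 2 months ahead of the lymphoid tumours of the TG mice and 12 months after they are established. Each of the 4 groups (WT and TG at 2 months, WT and TG at 12 months) held 2 arrays, numbered replicate 1 and replicate 2. The promoter that drives the transgene, the tumour load of each mouse and whether a replicate was 1 mouse or a pool are not given in the sources used here. No gene named Hmga1 was read from a probe set of its own, so the transgene was not analysed here.

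In a resting T cell the receptor's antigen-binding chains have no signalling tail of their own and depend on CD3 gamma, delta, epsilon and the zeta chain encoded by Cd247. When the receptor is engaged, the tails of these chains are phosphorylated and recruit the kinase ZAP70, which phosphorylates the scaffold LAT and so starts calcium, Ras and NF-kB signalling. CD2 and CD28 are adhesion and costimulatory receptors, CD5 dampens receptor signalling and is also carried by some B cells, and TRAT1 (TRIM) is a small membrane adaptor bound to the receptor complex. In spleen T cells carry these transcripts, but not every one of them comes from T cells alone. Bulk arrays cannot tell which cells a transcript came from, nor fewer T cells apart from less RNA per T cell.

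The 3 CD3 genes lie together on mouse chromosome 9, and the sequence before each is shown because all 3 had their highest signal on the same array, described further on. That of Cd5, on chromosome 19, is shown beside them because its highest signal was on another array. Cd247, Zap70 and Cd28, on chromosome 1, also had their highest signal on the array of the CD3 genes, as had 15.9% of all genes tested. A link between these sequences and the signals was not tested. In RefSeq's GRCm38.p6 annotation Cd3g spans chr9:44969572-44980431, Cd3d chr9:44981769-44987052 and Cd3e chr9:44998735-45009663, a stretch of 40092 bases in all. Cd3g and Cd3d are transcribed away from each other, and their spans begin 1338 bases apart. RefSeq's windows hold the 250 bases before a transcript's start. That start lay inside the gene's span for Cd3d, Cd3e and Cd5, so the last 17 bases of the window of Cd3d and the last 52 of those of Cd3e and Cd5 were left off. The sequences, 5′ to 3′ on the gene's strand, lie at chr9:44981536-44981768 (plus strand) for Cd3d, chr9:45009664-45009861 (minus strand) for Cd3e, chr9:44980432-44980681 (minus strand) for Cd3g and chr19:10739027-10739224 (minus strand) for Cd5. Capitals mark matches, searched on either strand and counted separately where they overlapped. The letters searched were AGGAAG, the core bound by ETS factors such as those of lymphocytes. They were also TGTGGT, the core bound by RUNX factors, which direct much of T cell development. The E box, CANNTG, is the site of helix-loop-helix factors, and its letters read alike on both strands. The TATA box was searched as TATAAA.
Cd3d: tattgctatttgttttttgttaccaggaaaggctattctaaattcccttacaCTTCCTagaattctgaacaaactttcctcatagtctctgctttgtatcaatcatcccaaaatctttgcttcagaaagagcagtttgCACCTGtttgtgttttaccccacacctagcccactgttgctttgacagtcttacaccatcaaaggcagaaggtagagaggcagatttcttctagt
Cd3e: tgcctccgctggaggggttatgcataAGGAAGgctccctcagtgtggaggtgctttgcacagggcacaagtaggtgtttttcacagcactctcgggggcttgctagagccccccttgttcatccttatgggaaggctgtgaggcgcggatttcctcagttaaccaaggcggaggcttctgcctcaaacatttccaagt
Cd3g: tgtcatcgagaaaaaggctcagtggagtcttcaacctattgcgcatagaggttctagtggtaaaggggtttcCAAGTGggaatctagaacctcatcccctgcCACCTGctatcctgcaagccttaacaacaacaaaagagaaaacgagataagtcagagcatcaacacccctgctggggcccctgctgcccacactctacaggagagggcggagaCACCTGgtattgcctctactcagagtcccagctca
Cd5: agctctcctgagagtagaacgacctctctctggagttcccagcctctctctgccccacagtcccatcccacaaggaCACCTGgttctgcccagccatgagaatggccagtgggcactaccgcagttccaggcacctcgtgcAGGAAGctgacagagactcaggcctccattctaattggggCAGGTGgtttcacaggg
The ETS letters occurred 1 time each in the sequences of Cd3d, Cd3e and Cd5 and 0 times in that of Cd3g. The E box letters occurred 1 time for Cd3d, 0 times for Cd3e, 3 times for Cd3g and 2 times for Cd5, and neither the RUNX nor the TATA letters occurred in these 4 sequences. With the bases left off counted too, the ETS letters occurred 2 times for Cd3e and 2 times for Cd5. The E box letters then occurred 1 time for Cd3e. RefSeq gave 10 windows of 250 bases for 8 of the 10 genes, counted here in full. Over these, 7 held the ETS letters, 2 the RUNX letters, 9 the E box letters and 1 the TATA letters. Of all 32851 RefSeq windows of this length, 29.5% held the ETS letters, 14% the RUNX letters, 66.2% the E box letters and 12.4% the TATA letters. A match describes letters and is no evidence of binding.

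The median signal per array was 44.9 to 49.5, so scaling left the arrays close to each other. Arrays with the same replicate number deviated together, with correlations of 0.464 to 0.654 over the 6 pairs of groups, so differences within a replicate are given beside each mean. Replicate 1 of the 2-month WT group stood apart by exocrine pancreas transcripts. Its summed signal over 6 such genes was 12715, against 505 to 785 on the other arrays. The members' medians in the comparisons that use this array are therefore also given without it.

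At 12 months the T cell receptor genes were high on 1 of the TG arrays and not on the other. On TG replicate 1 the CD3 chains, Cd247, Zap70 and Cd28 had their highest signal of all 8 arrays. On TG replicate 2 the signals of these genes lay near or below those of WT, except that of Zap70. Cd3e and Lat had their lowest signal of all arrays there, and Cd28 was level with the lower WT array (194.88 against 194.89). Cd2 and Cd5 followed another pattern, with both TG arrays above every other array. No member passed the test across all genes.

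CD3 delta, encoded by Cd3d (probe set 1422828_at), had signals of 1943 and 887 on TG replicates 1 and 2 of 12 months, and of 619 and 1061 on the WT arrays of that age. At 2 months the signals of Cd3d were 1517 and 1400 in TG and 1195 and 1255 in WT. TG replicate 1 of 12 months was thus the highest array and TG replicate 2 lay between the WT arrays of its age. CD3 epsilon, the chain that pairs with both delta and gamma, is encoded by Cd3e (1422105_at) and had signals of 803 and 287 in TG against 390 and 430 in WT at 12 months. For Cd3e the 2-month signals were 518 and 597 in TG and 515 and 486 in WT, so the highest and the lowest value of this gene both came from TG mice of 12 months. CD3 gamma, encoded by Cd3g (1419178_at), had signals of 1578 and 537 in TG and 564 and 413 in WT at 12 months, and of 979 and 524 in TG and 776 and 461 in WT at 2 months. Replicate 1 exceeded replicate 2 for Cd3g in every group, by 0.44 to 1.53 on the log2 scale, and TG lay above WT within each replicate at both ages.

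Cd247 (1426396_at; chr1:165779952-165871153) encodes the zeta chain, which carries most of the receptor's phosphorylation sites. Its signals at 12 months were 360 and 212 in TG and 196 and 233 in WT, and at 2 months 280 and 310 in TG and 256 and 269 in WT. TG replicate 1 of 12 months was again the highest array and TG replicate 2 lay between the WT arrays of that age. The kinase gene Zap70 (1422701_at; chr1:36761798-36782821) had signals of 447 and 324 in TG against 233 and 239 in WT at 12 months. At 2 months Zap70 signals were 394 and 337 in TG and 273 and 331 in WT. Both TG arrays lay above both WT arrays at each age for Zap70.

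The scaffold gene Lat (1460651_at; chr7:126363827-126369705) had signals of 705 and 445 in TG and 593 and 708 in WT at 12 months, and of 705 and 852 in TG and 563 and 809 in WT at 2 months. TG replicate 1 of 12 months lay between the WT arrays of its age for Lat, and TG replicate 2 gave the lowest value of the 8 arrays. The adaptor gene Trat1 (1437561_at; chr16:48730774-48810547) was the dimmest of the 10, near the filter on low signal of 45.3. Its signals were 72.9 and 78.0 in WT and 55.4 and 35.3 in TG at 2 months, and 55.3 and 31.6 in WT and 35.8 and 40.5 in TG at 12 months. The WT arrays of 2 months were above all others for Trat1, and the TG arrays of 12 months lay between the WT arrays of that age.

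Cd2 (1418770_at; chr3:101275908-101287939), the adhesion receptor, had signals of 888 and 919 in TG and 512 and 589 in WT at 12 months, and of 761 and 550 in TG and 731 and 554 in WT at 2 months. Cd5 (1418353_at; chr19:10718107-10739026), the dampening receptor, had signals of 412 and 470 in TG and 198 and 346 in WT at 12 months, and of 309 and 402 in TG and 277 and 342 in WT at 2 months. Both TG arrays of 12 months were above the other 6 arrays for Cd2 and for Cd5. Cd28 (1417597_at; chr1:60746388-60773359), the costimulatory receptor that reads B7 ligands, had signals of 450 and 194.88 in TG and 194.89 and 211 in WT at 12 months, and of 260 and 306 in TG and 216 and 243 in WT at 2 months. For Cd28, TG replicate 1 of 12 months stood above every array and TG replicate 2 was level with the lower WT array.

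**Figure D1:**
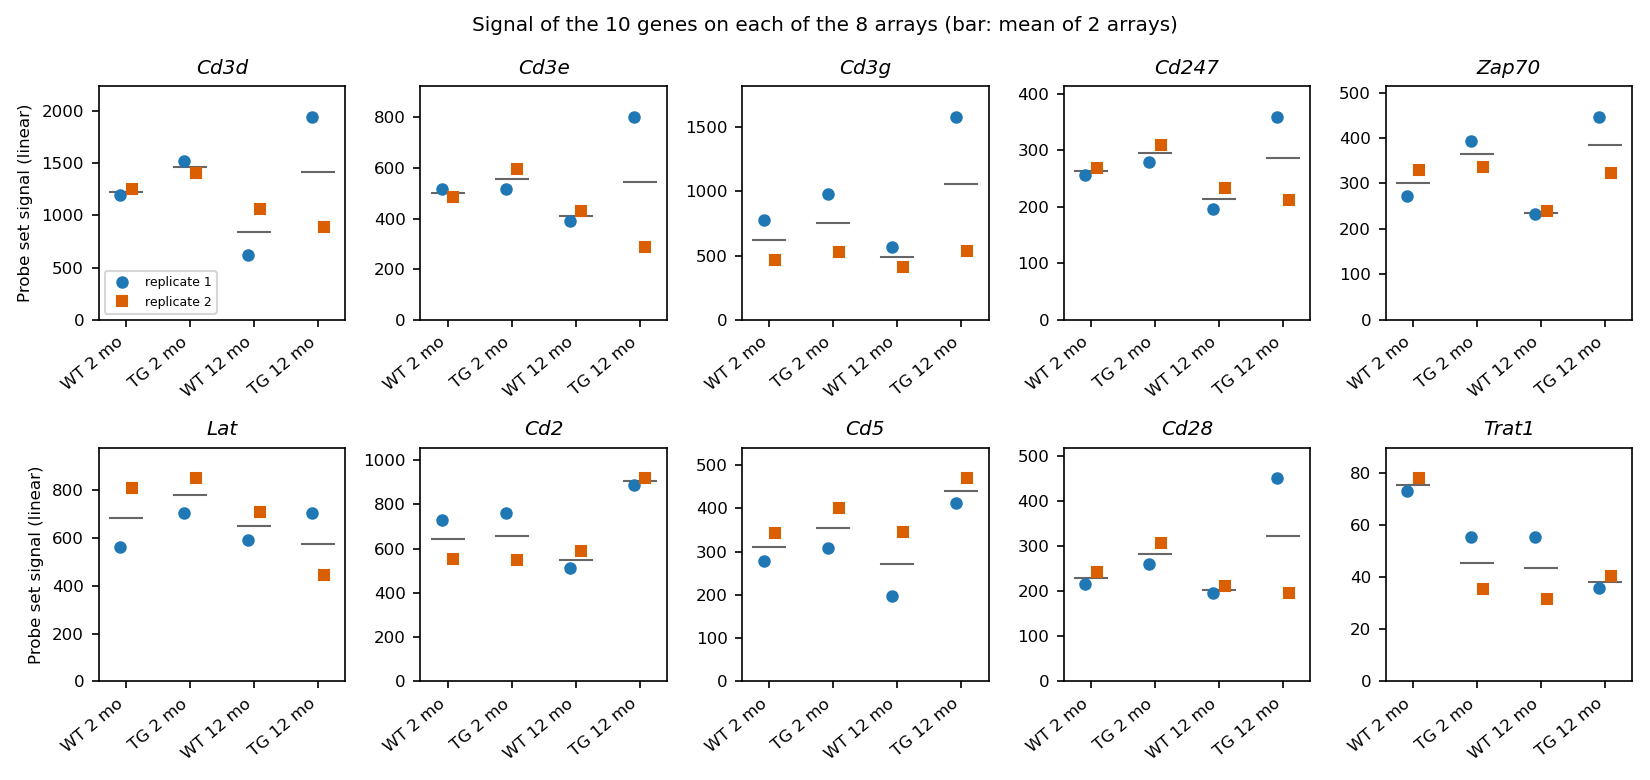
Signal (linear scale, from 0) of the 10 T cell receptor genes on each of the 8 arrays, by genotype and age, with replicate 1 and replicate 2 marked apart and a bar at each group's mean. Cd3e reached 803 and 287 on the TG arrays of 12 months, around WT values of 390 and 430, whereas Cd2 reached 888 and 919, above all other arrays.

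For the CD3 chains, Cd247 and Cd28 the TG arrays of 12 months lay further apart than their mean lay from that of WT. The signal of replicate 1 over that of replicate 2 was 2.94 for Cd3g, 2.80 for Cd3e, 2.31 for Cd28, 2.19 for Cd3d, 1.70 for Cd247, 1.58 for Lat and 1.38 for Zap70. For Cd2, Trat1 and Cd5 this ratio was 0.966, 0.885 and 0.877. Replicate 1 was above both WT arrays of its age for 8 of the 10 genes (all but Lat and Trat1), where 30.2% of all genes tested were. It was the highest of the 8 arrays for 6 of the 10, against 15.9% of all genes, and the lowest for 0. Replicate 2 was above both WT arrays for 3 of the 10 (Zap70, Cd2 and Cd5; 33.8% of all genes) and below both for 3 (Cd3e, Lat and Cd28; 36.2% of all genes). It was the highest array for 2 (Cd2 and Cd5, beside 16.2% of all genes) and the lowest for 3 (Cd3e, Lat and Cd28, beside 16.7% of all genes). Cd28 is counted as below WT and as lowest by 194.88 against 194.89 on WT replicate 1, in effect a tie.

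As log2 differences from the WT mean of 12 months, TG replicate 1 stood 1.68 higher for Cd3g, 1.24 for Cd3d, 1.09 for Cd28, 0.94 for Cd3e, 0.88 for Zap70 and 0.71 for Cd247. TG replicate 2 stood at 0.15 for Cd3g, 0.13 for Cd3d, -0.05 for Cd28, -0.49 for Cd3e, 0.43 for Zap70 and -0.01 for Cd247. The CD3 genes, which share a locus, were thus apart from each other on replicate 2, with Cd3e below WT and its neighbours near WT. For Cd2 both arrays were close, at 0.68 and 0.73, and so they were for Cd5, at 0.62 and 0.80. Lat stood at 0.12 and -0.53 and Trat1 at -0.17 and -0.04.

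In the limma fit over all 8 arrays, with values as log2(signal + 16), 0 of the 10 members differed between TG and WT at 12 months at an adjusted p under 0.05, and 0% of all 11189 genes did. Without adjustment, 865 genes had a p under 0.05, of which 290 were higher and 575 lower in TG. Among the members these were Cd2 (0.70 ± 0.22, log2 difference ± SE, adjusted p = 0.586), Zap70 (0.65 ± 0.21, adjusted p = 0.586) and Cd5 (0.71 ± 0.28, adjusted p = 0.610). The same 3 genes were the members whose TG and WT arrays did not overlap, all higher in TG, where 14.3% of all genes were higher and 19.9% lower without overlap. The largest mean difference was that of Cd3g, 0.91 ± 0.51 with an adjusted p of 0.727, or 1.46 for replicate 1 and 0.37 for replicate 2 taken alone. Leaving out 1 array moved these means. Cd5 was at 0.33 without WT replicate 1 and at 1.09 without WT replicate 2, Zap70 was at 0.43 without TG replicate 1, and Cd3g was at 0.15 without TG replicate 1 and at 1.68 without TG replicate 2.

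For the remaining members the 2 replicates differed in sign. TG minus WT was 1.63 within replicate 1 and -0.25 within replicate 2 for Cd3d (mean 0.69 ± 0.37, adjusted p = 0.721), and 1.01 and -0.56 for Cd3e (0.23 ± 0.39, adjusted p = 0.941). It was 0.83 and -0.13 for Cd247 (0.35 ± 0.25, adjusted p = 0.803), 1.14 and -0.11 for Cd28 (0.52 ± 0.34, adjusted p = 0.761), and 0.24 and -0.65 for Lat (-0.20 ± 0.27, adjusted p = 0.918). Trat1 went the other way, with -0.46 and 0.25 (-0.11 ± 0.28, adjusted p = 0.965). Only Cd3g, Zap70, Cd2 and Cd5 were higher in TG within both replicates.

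Over the 10 members the median log2 difference at 12 months was 0.59, with 8 higher and 2 lower, beside a median of -0.03 over all genes. Within replicate 1 the median was 0.94 and within replicate 2 it was 0.07. Leaving out TG replicate 1 brought the median to 0.06, and leaving out TG replicate 2 brought it to 0.79. Without WT replicate 1 it was 0.32 and without WT replicate 2 it was 0.62. With the replicate number as a block, 5 of all genes were called, none of them a member. Under that block 2227 genes, including Cd3g besides Cd2, Cd5 and Zap70, had an unadjusted p under 0.05, and the members' adjusted p-values ran from 0.108 for Cd5 to 0.855 for Trat1.

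**Figure D2:**
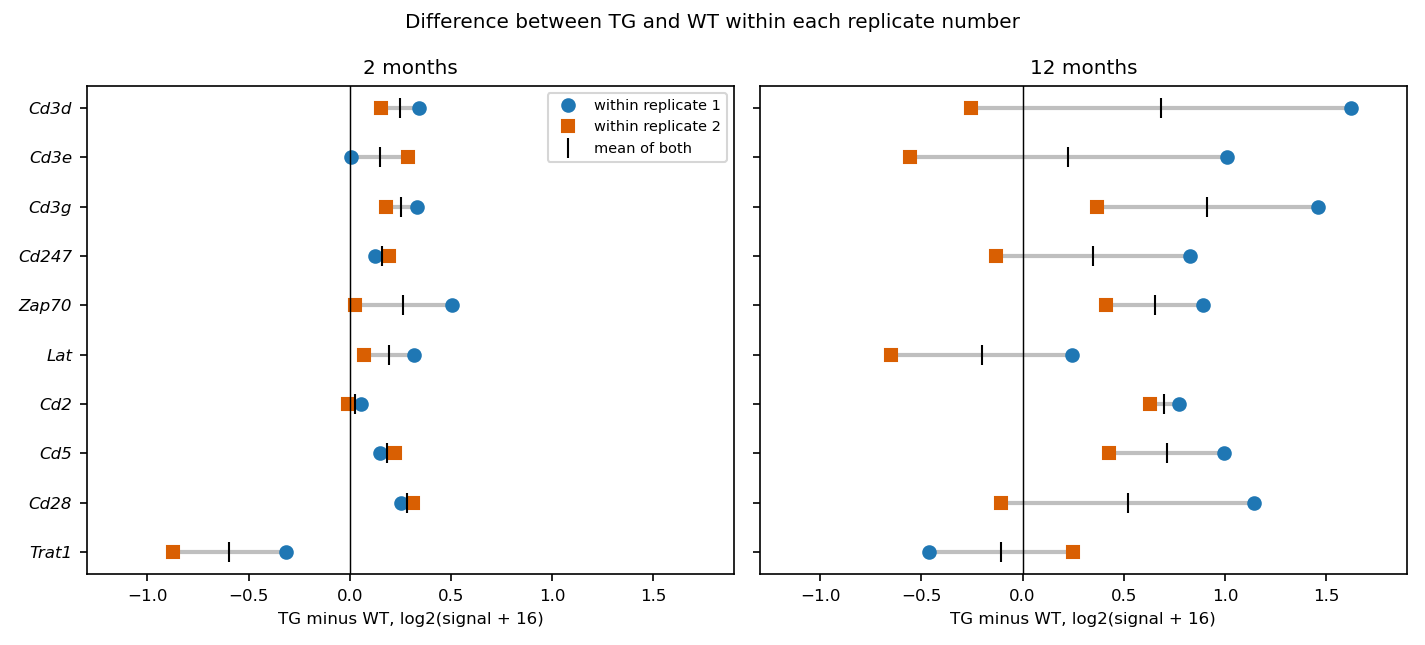
TG minus WT on the log2(signal + 16) scale for each of the 10 genes, within replicate 1 and within replicate 2, at 2 months and at 12 months. At 12 months Cd3d lay at 1.63 in replicate 1 and -0.25 in replicate 2 while Cd2 lay at 0.77 and 0.63; at 2 months 8 of the 10 genes were above 0 in both replicates.

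The rest of the pathway was nearly evenly split between higher and lower in the mean and differed by replicate. Of 65 genes listed in 5 groups (coreceptors, proximal kinases and phosphatases, adaptors and regulators, signalling downstream of LAT, and T cell surface and costimulation), 57 were measured, of which 32 were higher and 25 lower in TG at 12 months, with a median of 0.08; of all genes tested 45.2% were higher. In replicate 1 alone 40 were higher (median 0.16), beside 44.0% of all genes (median -0.05). In replicate 2 alone 23 were higher (median -0.12), beside 47.4% of all genes (median -0.02). None passed the test in either direction, with the replicate block or without it. For the antigen-binding receptor chains, 12 symbols were listed, of which 1 had a probe set of its own and 0 were above the filter, so these chains were not analysed here.

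Among the coreceptors, Cd8b1, the beta chain of CD8, had signals of 1180 and 475 in TG and 263 and 330 in WT at 12 months (1.30 ± 0.37, adjusted p = 0.586). The alpha chain gene Cd8a had 1261 and 440 in TG and 257 and 482 in WT (1.05 ± 0.47, adjusted p = 0.652). Cd4, the coreceptor of helper T cells, had 271 and 258 in TG and 336 and 345 in WT (-0.34 ± 0.19, adjusted p = 0.729). The CD8 chains thus stood high on TG replicate 1, as the CD3 chains did, and Cd4 was lower than in WT on both TG arrays.

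Of 14 surface and costimulation genes measured, 10 were higher and 4 lower in TG at 12 months, and their median was 0.54 for replicate 1 and -0.16 for replicate 2. Thy1, a surface glycoprotein of mouse T cells, had signals of 1915 and 1106 in TG and 767 and 1038 in WT (0.70 ± 0.31, adjusted p = 0.646). Icos, an inducible costimulator, had 559 and 277 in TG and 201 and 278 in WT (0.70 ± 0.31, adjusted p = 0.652). Btla, an inhibitory receptor that mouse B cells carry too, was low on both TG arrays, with 1397 and 1293 against 2597 and 2199 in WT (-0.82 ± 0.17, adjusted p = 0.561, and 0.062 with the replicate block).

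The 10 proximal kinases and phosphatases measured were split, 5 higher and 5 lower, with a median of 0.04. Txk, a Tec-family kinase of T cells, had signals of 267 and 158 in TG and 115 and 160 in WT at 12 months (0.55 ± 0.27). The phosphatase gene Ptpn22 differed by 0.33 ± 0.25 and the ubiquitin ligase gene Cblb by -0.28 ± 0.22, both of them brakes on receptor signalling.

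Of 16 adaptors and regulators, 7 were higher and 9 lower, with a median of -0.02. Skap1, an adaptor that links the receptor to integrins, had 525 and 248 in TG and 233 and 256 in WT (0.54 ± 0.31), the same split between the TG arrays as the CD3 chains. Tespa1, a regulator of thymocyte selection, had 128 and 139 in TG and 190 and 274 in WT (-0.71 ± 0.23, adjusted p = 0.586). Pag1, an adaptor that holds the inhibitory kinase CSK at the membrane, differed by -0.34 ± 0.26.

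Downstream of LAT, 8 of 14 genes were higher and 6 lower, with a median of 0.08. Nfatc1, a calcium-dependent transcription factor, had signals of 935 and 1864 in TG and 733 and 716 in WT (0.85 ± 0.29, adjusted p = 0.591), and here TG replicate 2 was the higher array. Dgka, which removes the messenger diacylglycerol, had 971 and 951 in TG and 1143 and 1543 in WT (-0.46 ± 0.19), and its relative Dgkz differed by 0.16 ± 0.17.

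**Figure D3:**
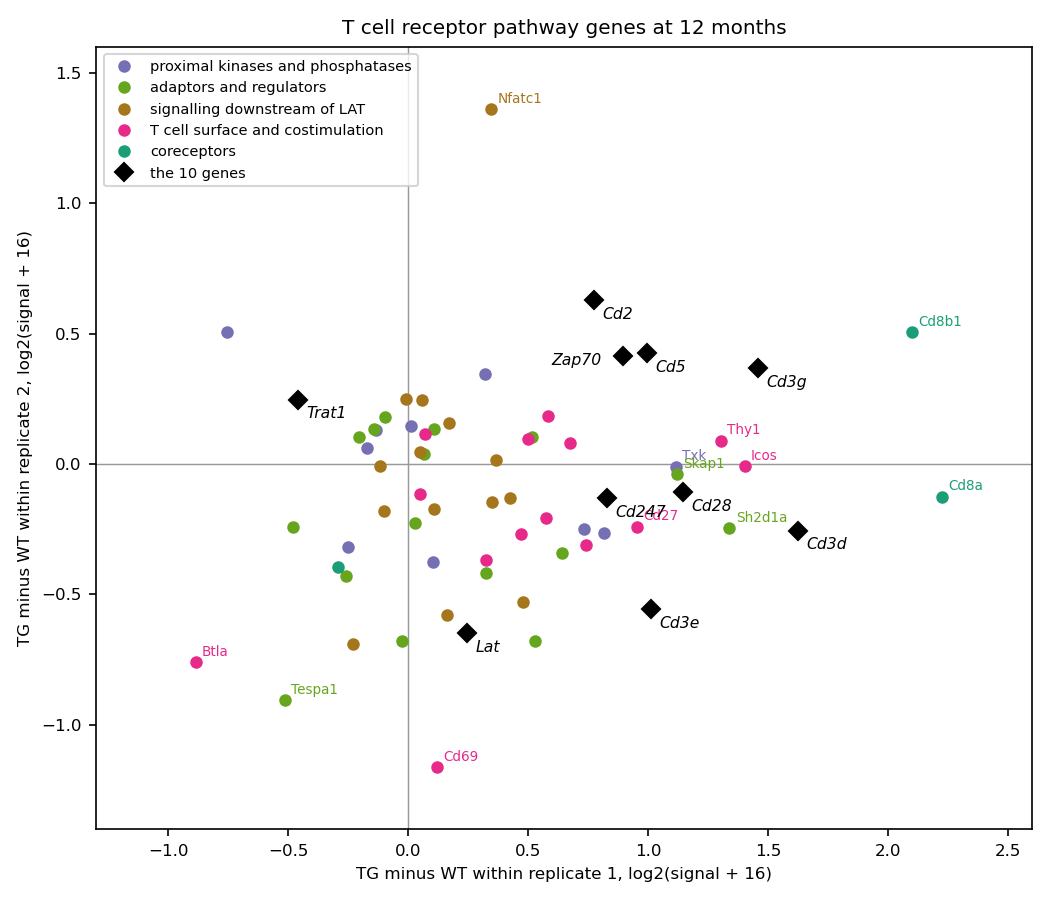
TG minus WT at 12 months on the log2(signal + 16) scale, within replicate 1 (horizontal) against within replicate 2 (vertical), for the 10 T cell receptor genes and the 57 other pathway genes, coloured by group. Of the 10, 9 lay right of 0 and 5 lay above 0; of the 57, 40 lay right of 0 and 23 lay above 0.

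Lists of other spleen cells were measured beside the members. The summed signal of the 10 members was 7623 and 4315 on the TG arrays of 12 months, 3557 and 4261 on the WT arrays of that age, 5314 to 5779 in TG and 4830 to 4874 in WT at 2 months. TG replicate 1 of 12 months, where the members were highest, had the lowest sum of the B cell receptor list of all arrays, 16815 over 12 of 14 genes listed, against 24528 to 29978 on the 2-month arrays and on replicate 2 of either genotype at 12 months, and 23666 on WT replicate 1 of 12 months. The macrophage and monocyte list was also lowest there, at 22750 over 12 genes, against 26105 to 34754 on the other 7 arrays. The natural killer cell list was 7365 and 6304 in TG and 6424 and 6617 in WT at 12 months. This sum hides opposite moves, as 6 of its 12 genes were higher and 6 lower in TG in the mean. Nkg7 had 1746 and 779 in TG and 422 and 547 in WT. Gzma had 42.5 and 89.6 in TG and 338 and 337 in WT. Tyrobp, the brightest of the list, had 1784.5 and 3003 in TG and 2678 and 2912 in WT. The neutrophil list was 9295 and 20977 in TG and 10125 and 5772 in WT. No gene of these lists was at 0 on any array. The ratio of 3′ to 5′ signal for Gapdh, a sign of RNA and labelling quality, was 0.843 and 1.21 on the TG and 1.25 and 1.73 on the WT arrays of 12 months. That for actin was 1.20 and 1.10 in TG and 1.48 and 1.31 in WT. The part of these differences in the members' values was not tested.

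**Figure D4:**
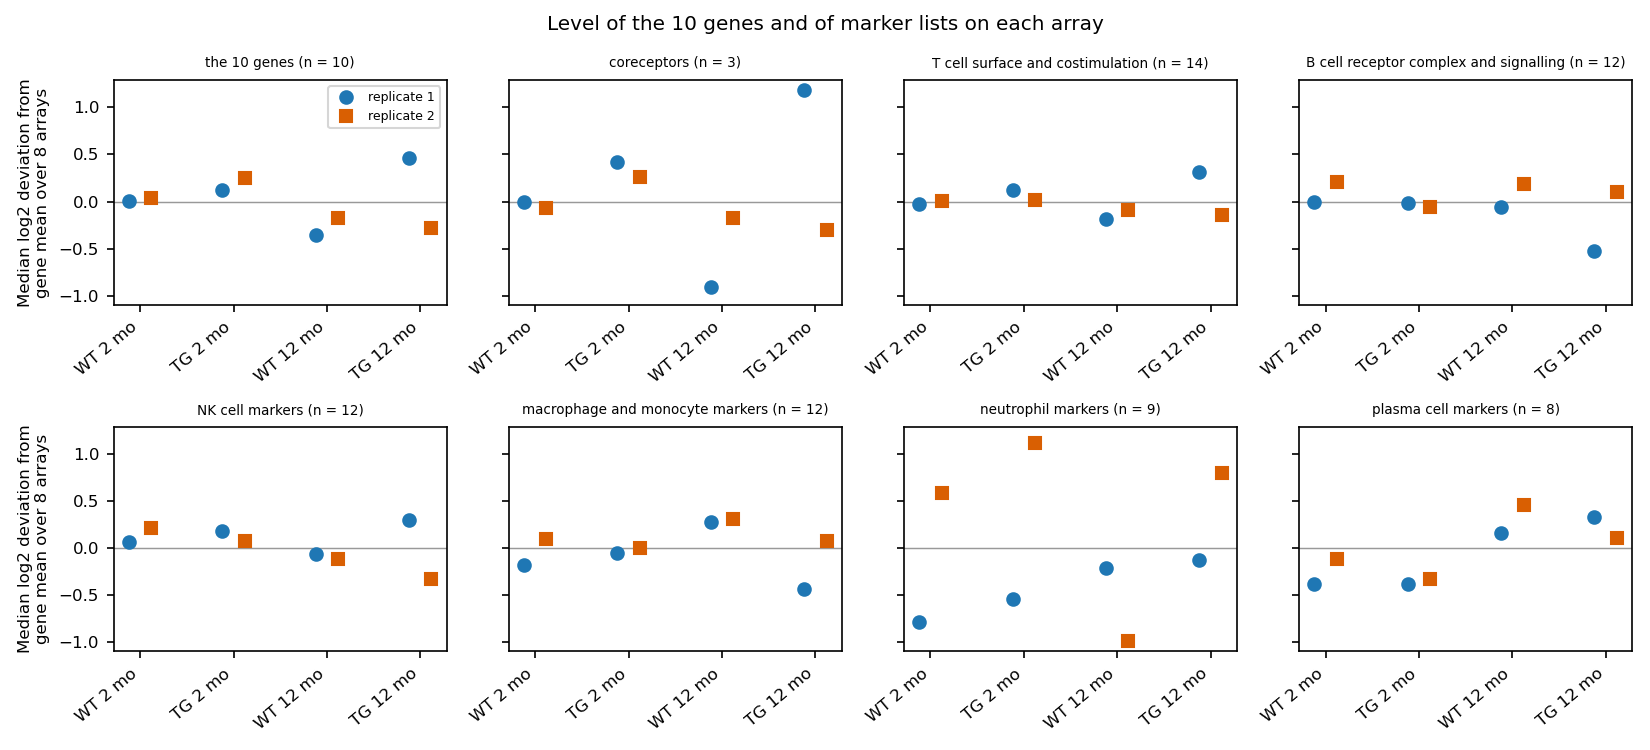
Median log2 deviation of each list's genes from their own means over the 8 arrays, for the 10 T cell receptor genes, the coreceptors, the surface and costimulation list and lists of other spleen cells, by genotype, age and replicate. On TG replicate 1 of 12 months the T cell receptor genes stood at 0.46 and the B cell receptor list at -0.53; on TG replicate 2 they stood at -0.29 and 0.098.

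At 2 months, ahead of the tumours, 9 of the 10 members were slightly higher in TG than in WT and Trat1 was lower. The median difference over the members was 0.19 (0.20 within replicate 1, 0.17 within replicate 2), beside 0.01 over all genes, and 8 members were higher within both replicates. Cd3d, Cd3e, Cd247, Zap70 and Cd28 were higher in TG without overlap, 5 of the 10 members where 10.1% of all genes were. The gap was narrow for Cd3e (518 in TG against 515 in WT) and Zap70 (337 against 331). On other probe sets above the filter TG and WT overlapped for Cd247 (1452539_a_at), Cd28 (1437025_at) and Zap70 (1440178_x_at). A further Zap70 probe set, 1439749_at, was higher in TG without overlap. Among the members only Trat1 was lower without overlap, as 7.83% of all genes were. The differences were 0.28 ± 0.34 for Cd28, 0.27 ± 0.21 for Zap70, 0.25 ± 0.37 for Cd3d, 0.25 ± 0.51 for Cd3g and 0.16 ± 0.25 for Cd247, each smaller than 1.5 times its SE. Cd2 and Cd5, high on both TG arrays at 12 months, differed by 0.02 ± 0.22 and 0.18 ± 0.28 here. The value of Trat1 was -0.59 ± 0.28. The limma fit called 0 members and 0% of all genes at 2 months, with 44 genes at an unadjusted p under 0.05 and no member among them. With the replicate block it also called 0, with 189 genes at an unadjusted p under 0.05. Without the WT array that held pancreas transcripts the members' median was 0.16, and Lat turned sign, to -0.061.

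The effect of the transgene at 12 months minus that at 2 months had a median of 0.41 over the members; for replicate 1 alone it was 0.78 and for replicate 2 alone -0.067. Without TG replicate 1 of 12 months this median was -0.11, and without TG replicate 2 it was 0.63. Without WT replicate 1 of 12 months it was 0.17, and with 2-month TG replicate 2 left out it was 0.27. It was 0.40 without the 2-month WT array that held pancreas transcripts. The value was 0.68 ± 0.31 for Cd2 (0.72 and 0.64 within the replicates) and 0.53 ± 0.39 for Cd5. It was 0.66 ± 0.72 for Cd3g, 0.49 ± 0.40 for Trat1, 0.44 ± 0.53 for Cd3d and 0.39 ± 0.30 for Zap70. Cd28 was at 0.24 ± 0.48, Cd247 at 0.19 ± 0.36, Cd3e at 0.08 ± 0.56 and Lat at -0.40 ± 0.38. The limma fit of this difference called 0 members and 0% of all genes, with 213 genes and no member at an unadjusted p under 0.05. With the replicate block it called 0 as well, with 911 genes, Cd2 and Cd5 among them, at an unadjusted p under 0.05.

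Between 2 and 12 months the 10 members were lower in WT mice, all of them in the mean and 7 within both replicates. The median was -0.28, beside 0.01 over all genes, and -0.18 without WT replicate 1 of 12 months. It was -0.31 without the 2-month WT array that held pancreas transcripts. Cd3d, Cd3e, Cd247, Zap70, Cd28 and Trat1 were lower at 12 months without overlap, 6 of the 10 where 10.9% of all genes were. None was higher without overlap, where 12.7% of all genes were. On other probe sets above the filter the ages overlapped for Cd28 (1437025_at) and Zap70 (1439749_at and 1440178_x_at). Cd247 was lower without overlap on its probe set 1452539_a_at too. The members' values were -0.65 ± 0.28 for Trat1, -0.59 ± 0.37 for Cd3d, -0.33 ± 0.21 for Zap70 and -0.30 ± 0.51 for Cd3g. They were -0.28 ± 0.39 for Cd3e, -0.28 ± 0.25 for Cd247 and -0.06 ± 0.27 for Lat. Cd5 was at -0.22 ± 0.28, Cd2 at -0.21 ± 0.22 and Cd28 at -0.16 ± 0.34. The limma fit called 0 members and 0% of all genes, with 171 genes at an unadjusted p under 0.05 and no member among them. With the replicate block it called 0, with 578 genes, Trat1 among them, at an unadjusted p under 0.05. This comparison shares its WT arrays with both TG comparisons: the low WT values at 12 months and the differences of TG from WT at that age rest on the same arrays.

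In TG mice the members had no common direction with age. Of the 10, 5 were higher and 5 lower at 12 months, and their median was -0.01; for replicate 1 alone it was 0.35 and for replicate 2 alone -0.29. The median was -0.43 without TG replicate 1 of 12 months and 0.35 without TG replicate 2. Leaving out TG replicate 1 or 2 of 2 months gave 0.018 and -0.065. Cd2 (0.47 ± 0.22) and Cd5 (0.31 ± 0.28) were higher without overlap, where 10.3% of all genes were, and 0 were lower without overlap, where 17.4% of all genes were. Cd3d was at -0.15 (0.35 and -0.65 within the replicates), Cd3e at -0.20 (0.62 and -1.02) and Lat at -0.46 ± 0.27. Cd3g was at 0.36 ± 0.51, Cd28 at 0.07 ± 0.34 and Zap70 at 0.06 ± 0.21. Cd247 was at -0.09 ± 0.25 and Trat1 at -0.16 ± 0.28. The limma fit called 1 gene of all, 0.00894%, and 0 members, with 528 genes and no member at an unadjusted p under 0.05. With the replicate block it called 21 genes, no member among them, and Cd2 had an adjusted p of 0.325.

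Several probe sets were annotated to 4 of the 10 genes, and they did not all follow the one used. Of 17 probe sets for the members, 14 passed the filter. For Cd247 the probe set 1452539_a_at had signals of 196 and 72.1 in TG and 48.2 and 54.9 in WT at 12 months, which gave TG minus WT of 1.72 and 0.31 within the replicates. For Cd28 the probe set 1437025_at gave 1.25 and -0.20, close to the 1.14 and -0.11 of the one used. For Zap70 the probe set 1439749_at went another way, with 87.5 and 194 in TG and 153 and 123 in WT, or -0.71 and 0.60 within the replicates. A further Zap70 probe set, 1440178_x_at, gave 0.19 and -0.08, so the higher Zap70 signal on both TG arrays rests on the probe set 1422701_at. For Trat1 the probe set 1427532_at, under the filter, had 15.8 and 1.14 in TG and 24.2 and 17.9 in WT. That gave -0.34 and -0.98 within the replicates, lower in both, where the one used gave -0.46 and 0.25.

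Across the 8 arrays, the members did not share 1 profile. The log2 values of each gene were set against the mean of the other members, as a description over arrays that share replicate numbers. Pearson's r was 0.94 for Cd247, 0.92 for Cd3d, 0.89 for Cd28, 0.87 for Zap70, 0.79 for Cd3e and 0.68 for Cd3g. It was 0.39 for Cd2, 0.33 for Lat, 0.32 for Cd5 and -0.22 for Trat1. Without TG replicate 1 of 12 months, r was 0.90 for Cd247, 0.91 for Cd3d, 0.60 for Cd3e and 0.33 for Cd3g. Among genes that are no members, the profiles most like the members' mean were those of Skap1 (r = 0.97), Rabepk (0.97), Cd8b1 (0.96), Cd8a (0.96), Prmt3 (0.96), Inpp1 (0.95), Slc25a4 (0.95) and Klk8 (0.94). Without TG replicate 1 of 12 months these were 0.97, 0.94, 0.92, 0.91, 0.93, 0.89, 0.90 and 0.91. The mean profile itself, in log2 units from its own mean, stood at 0.49 and -0.18 on the TG arrays and at -0.37 and -0.22 on the WT arrays of 12 months.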

How the data were processed

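The 8 arrays measured splenocyte RNA, 2 arrays in each of 4 groups. The authors deposited 1 linear intensity per probe set and array, made with GCOS 1.4 and MAS5 per the submitters' processing notes. The table holds 45101 probe sets, of which 34945 were annotated to 1 gene symbol; 34741 of these were matched to current symbols by gene identifier. Values were taken as log2(signal + 16), which understates the change of dim genes. Probe sets under the median of all mean values (a signal of 45.3) were dropped, leaving 22551, of which 19308 had 1 symbol. The probe set with the highest mean stood for each gene, giving 11189 genes.

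Testing used limma 3.58.1 under R 4.3.3 on 4 group means from all 8 arrays (lmFit, eBayes with an intensity trend, 4 residual degrees of freedom, 2-sided p-values, Benjamini-Hochberg over all genes, threshold 0.05). The fit was tested on simulated data with a common spread for all genes and no shift by replicate number, unlike these arrays. That test does not show how well differences of the members' size are found here. The labels call the replicates biologic. The p-values rest on the spread between the 2 samples of a group, pooled over the 4 groups and drawn toward a trend over all genes. Without the block described next, that spread includes any shift shared by arrays of the same replicate number. Same-numbered arrays of different groups deviated together (correlations of 0.464 to 0.654 over 6 pairs of groups), so the numbers were taken to pair the samples, and a fit with the replicate number as a block was an alternative. Others were the pseudocount, the filter, quantile and loess scaling, averaging the probe sets of a gene, no intensity trend, and leaving out each array. Arrays give no read depth; their number limits the precision.

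The 10 members and all lists were chosen with earlier results of these data known, and no test was made over a list. All 10 members are named in each comparison. From each pathway list the 3 genes with the smallest p at 12 months are named, and as most alike the 8 genes with the highest correlation with the members' mean. Promoter windows are RefSeq's (GRCm38.p6), with the 50 transcribed bases and, in the sequences shown, those inside the gene's span dropped. No value was adjusted for cell composition.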

Additional observations from a re-analysis of the deposited data

How the results depend on the processing

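Over 845 recalculated member values, 812 kept their sign, 33 turned it and 0 gained or lost a call; the smallest adjusted p was 0.108, for Cd5 at 12 months with the replicate block. The block raised the genes called from 0 to 5 at 12 months and from 1 to 21 between the ages in TG, and changed no other call. With log2(signal + 1) the latter count was 0. Averaging the probe sets of a gene turned the sign of 3 values, giving -0.067 for Zap70 in the difference of the effects, and 0.19 for Cd247 and -0.28 for Zap70 between the ages in TG. Scaling by quantiles or loess turned no member's sign and moved the median of all genes by at most 0.03. The stricter filter left 7896 genes and no value for Trat1.

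Leaving out each array in turn, the genes called ranged from 0 to 7 at 12 months (7 without TG replicate 2 of that age), 0 to 2 at 2 months, 0 to 4 between the ages in WT and 0 to 4 in TG, and the members' median at 2 months from 0.13 to 0.24. Member values that turned sign ranged as follows. At 12 months they were -0.49 to 0.94 for Cd3e, -0.012 to 0.71 for Cd247, -0.53 to 0.12 for Lat, -0.053 to 1.09 for Cd28 and -0.40 to 0.19 for Trat1. At 2 months they were -0.19 to 0.69 for Cd3g, -0.061 to 0.45 for Lat and -0.21 to 0.25 for Cd2. In the difference of the effects they were -0.12 to 1.00 for Cd3d, -0.64 to 0.80 for Cd3e, -0.10 to 1.42 for Cd3g, -0.17 to 0.55 for Cd247 and -0.34 to 0.81 for Cd28. Between the ages they were, in WT, -0.67 to 0.063 for Cd3g, -0.31 to 0.20 for Lat and -0.60 to 0.16 for Cd5, and in TG, -0.71 to 0.41 for Cd3d, -0.92 to 0.52 for Cd3e, -0.41 to 1.12 for Cd3g, -0.45 to 0.27 for Cd247, -0.16 to 0.28 for Zap70, -0.50 to 0.64 for Cd28 and -0.40 to 0.076 for Trat1. With 2 arrays a group, a fit without 1 assumes that the lone array varies like the other groups. The dimmest member, Trat1, lies near the filter, where a signal holds little above background.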
